A study of Mus musculus with 12 samples.

Results

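The genes described here are 2 chloride channel regulators, Clca3a1 and Clca3a2, and 5 carbonic anhydrases, Car2, Car3, Car8, Car13 and Car14, as they were measured in mouse lung endothelial cells (ECs) during colonization of the lung by breast cancer cells. The 7 genes are 7 of 18193 genes on the array and were listed by name, with Clca3a1 and Car13 chosen by their week 3 signals against healthy lungs. A gene was read from 1 probe set, a group of probes for 1 transcript region, namely the brightest on average among those assigned to that symbol alone. RNA came from lung ECs of NSG mice, a strain without T, B or NK cells, and the study used female mice of 6 to 12 weeks. There were 4 groups of 3 arrays: healthy lungs that had received no cancer cells, and lungs 1, 2 and 3 weeks after an intravenous injection of MDA231-LM2 cells, a lung-metastatic subline of the human breast cancer line MDA-MB-231. All groups share the strain and the sort, which took CD31+ cells that were negative for blood cell (CD45, CD11b), epithelial (EpCAM) and fibroblast or pericyte (CD140a, CD140b) markers and for the GFP of the cancer cells. The arrays of a group are labelled as biological replicates, and how many mice went into each is not given in the sources used here.

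CLCA proteins are secreted or membrane-associated glycoproteins of metalloprotease type. They were first described as chloride channels and are now regarded as regulators of calcium-activated chloride currents, and in cattle a CLCA protein of lung endothelium was described as an adhesion molecule for tumor cells. Carbonic anhydrases catalyze the reversible hydration of CO2 to bicarbonate and a proton. In lung capillaries Car4, a form anchored to the luminal surface, acts on the bicarbonate of plasma, while cytosolic forms buffer the inside of the cell.

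Both CLCA members lie in 1 cluster of CLCA genes on chromosome 3, in the RefSeq order Clca3a1, Clca3a2, Clca3b, Clca4c-ps, Clca4b, Clca4a, Clca1 and Clca2. Car13, Car1, Car3 and Car2 form a separate cluster on the same chromosome, and Car14 lies elsewhere on it. The start region of Clca3a1 is shown because this gene had the largest difference of the 7. It was taken from RefSeq (GRCm38.p6), with 250 bases before and 50 after the listed start, on the minus strand at chr3:144760928-144761227. Capitals mark the transcribed bases.
Clca3a1: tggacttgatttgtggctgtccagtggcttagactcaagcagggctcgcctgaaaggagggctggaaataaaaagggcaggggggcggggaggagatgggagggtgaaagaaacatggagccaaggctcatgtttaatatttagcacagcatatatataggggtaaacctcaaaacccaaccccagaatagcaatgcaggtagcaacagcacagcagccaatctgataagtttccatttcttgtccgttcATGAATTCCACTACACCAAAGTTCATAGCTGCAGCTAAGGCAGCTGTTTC
A set of 7 motifs was searched on both strands, with overlaps counted, among 32851 promoters of the same length. These were the hypoxia response cores ACGTG (in 19.6% of all promoters) and GCGTG (32.4%), the interferon gamma activated site TTCNNNGAA (8.30%), the kappa B site (GGGA, any 4 bases, CC; 20.7%), the AP-1 site TGANTCA (7.81%), the TATA box TATAAA (13.6%) and the octamer ATGCAAAT (1.74%). None of these letters was in the Clca3a1 window.

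Clca3a1 had the largest difference of the 7 genes at week 3. Values are log2 signals after RMA (robust multiarray average) normalization, a scale on which a difference of 1 is a doubling, and the median of all signals was 8.13. In healthy ECs Clca3a1 (probe set 1417852_x_at) had 8.05, 7.82 and 7.84, at week 1 8.03, 8.29 and 8.91, at week 2 8.73, 9.52 and 9.14, and at week 3 10.44, 10.46 and 10.60. The week 3 arrays lay above all others, the week 2 arrays lay above the healthy ones, and the week 1 arrays overlapped those of both healthy lungs and week 2. Week 3 was 2.60 ± 0.11 (SE) above healthy lungs, a 6.05-fold difference, which ranked 6 among 18193 genes by rise. That contrast chose the gene and is given with no test, as are the other week 3 differences of the 7 genes. Over week 2 the week 3 difference was 1.37 ± 0.20 (SE), and over week 1 it was 2.09 ± 0.22 (SE).

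Before week 3 the differences of Clca3a1 did not pass the threshold, an adjusted p below 0.05 by limma over all 45037 probe sets. Week 2 was 1.23 ± 0.20 (SE) above healthy lungs, or 2.34-fold (adjusted p = 0.0947), and the value passed with all 4 groups in 1 fit (adjusted p = 0.0467). Week 1 was 0.51 ± 0.22 (SE) above healthy lungs (adjusted p = 0.557). These comparisons share the healthy arrays with the contrast behind the choice of the gene. The comparison of week 2 with week 1 shares no array with it, and there the difference was 0.72 ± 0.27 (SE; adjusted p = 0.641).

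**Figure D1:**
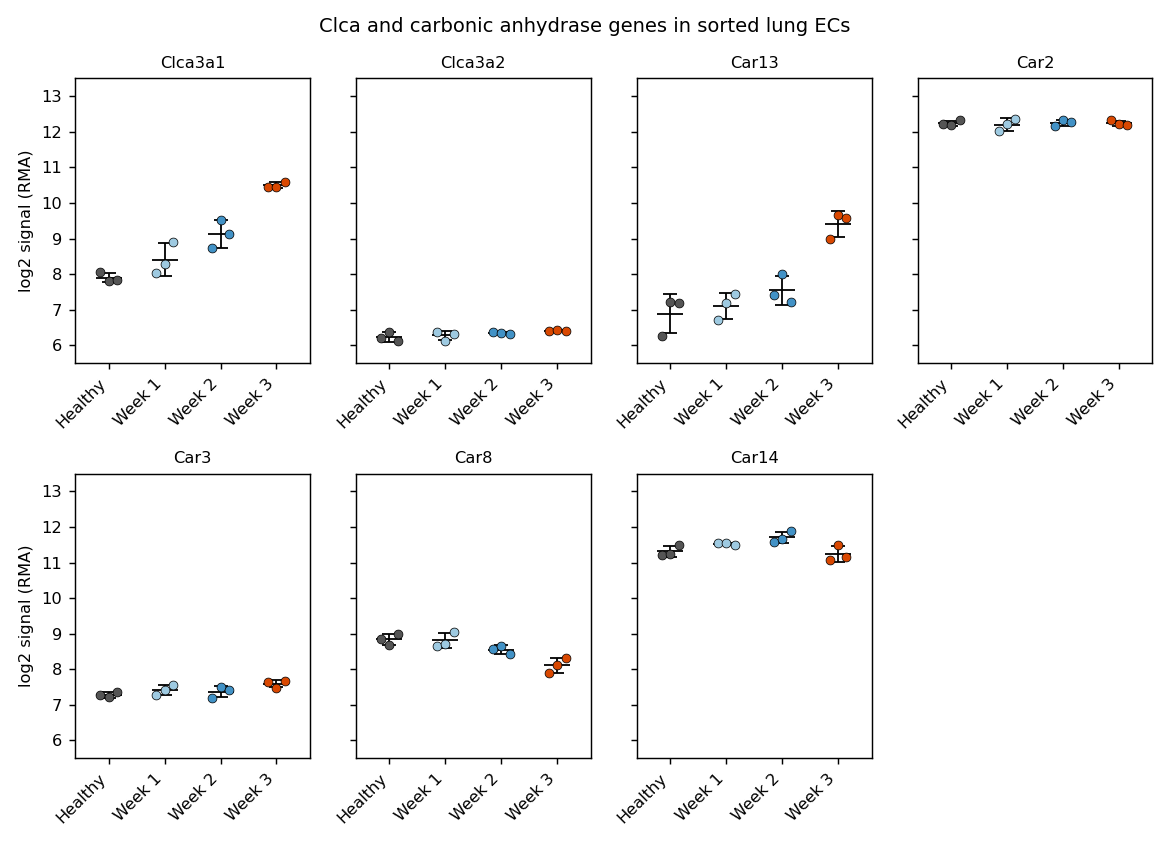
Log2 signal (RMA) of the 7 genes on each of the 12 arrays, 3 per group, with healthy lungs and weeks 1, 2 and 3 from left to right. Points are arrays, and the bars are the mean ± SD. Clca3a1 and Car13 sit above their other groups at week 3, at 10.44 to 10.60 and 8.98 to 9.67, Car8 sits below at 7.91 to 8.33, and Car2 stays between 12.02 and 12.37.

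A second Clca3a1 probe set differed from the first at week 2. Probe set 1417853_at had 6.30, 7.11 and 6.27 in healthy lungs, 6.84, 6.38 and 7.29 at week 1, 6.26, 6.96 and 6.72 at week 2, and 8.31, 7.87 and 8.14 at week 3. Its week 3 arrays were above all others, by 1.55 ± 0.24 (SE) over healthy lungs, but its week 2 arrays overlapped the healthy ones, with a difference of 0.08 ± 0.27 (SE; adjusted p = 0.943). The week 2 step of Clca3a1 was thus seen by 1 of its 2 own probe sets, and the first has the suffix _x_at, which marks probes that may bind related transcripts.

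Probe set 1460259_s_at is assigned to both Clca3a1 and Clca3a2 and was read for neither gene. It had 7.58, 7.51 and 7.50 in healthy lungs, 8.11, 8.74 and 8.51 at week 1, 8.77, 9.29 and 9.22 at week 2, and 10.65, 10.61 and 10.66 at week 3. Each group lay above the group before it with no overlap. Week 3 was 3.11 ± 0.10 (SE) above healthy lungs, 8.63-fold. At week 2 it rose by 1.56 ± 0.15 (SE), or 2.95-fold over healthy lungs (adjusted p = 0.0242), and this call was lost when any 1 of the 6 arrays was left out, with adjusted p between 0.0521 and 0.14. At week 1 the difference from healthy lungs was 0.92 ± 0.17 (SE; adjusted p = 0.103), which passed with all 4 groups in 1 fit (adjusted p = 0.031). Between week 2 and week 1 it was 0.64 ± 0.21 (SE; adjusted p = 0.556). Over the 12 arrays its signal had a Pearson correlation of 0.98 with 1417852_x_at and 0.79 with 1417853_at of Clca3a1, and of 0.56 and 0.45 with the 2 probe sets of Clca3a2. These points share arrays and groups, so the values are a description, and reads of the 2 transcripts by this probe set cannot be told apart.

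Clca3a2, the neighbour of Clca3a1, differed little by the 2 probe sets of its own, which were both dim. Probe set 1419463_at had 6.21, 6.38 and 6.11 in healthy lungs, 6.38, 6.13 and 6.33 at week 1, 6.38, 6.35 and 6.33 at week 2, and 6.41, 6.43 and 6.40 at week 3. All 12 signals were below the median of the arrays, and the mean was at percentile 8.37 of all probe sets. Week 3 was 0.18 ± 0.11 (SE) above healthy lungs without overlap. The second probe set of Clca3a2, 1437578_at, was at percentile 1.07 and differed by 0.20 ± 0.17 (SE) with overlap. At such dim signals a change of the transcript may go unseen. Differences from healthy lungs were 0.12 ± 0.11 (SE; adjusted p = 0.758) at week 2 and 0.05 ± 0.13 (SE; adjusted p = 0.938) at week 1.

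**Figure D2:**
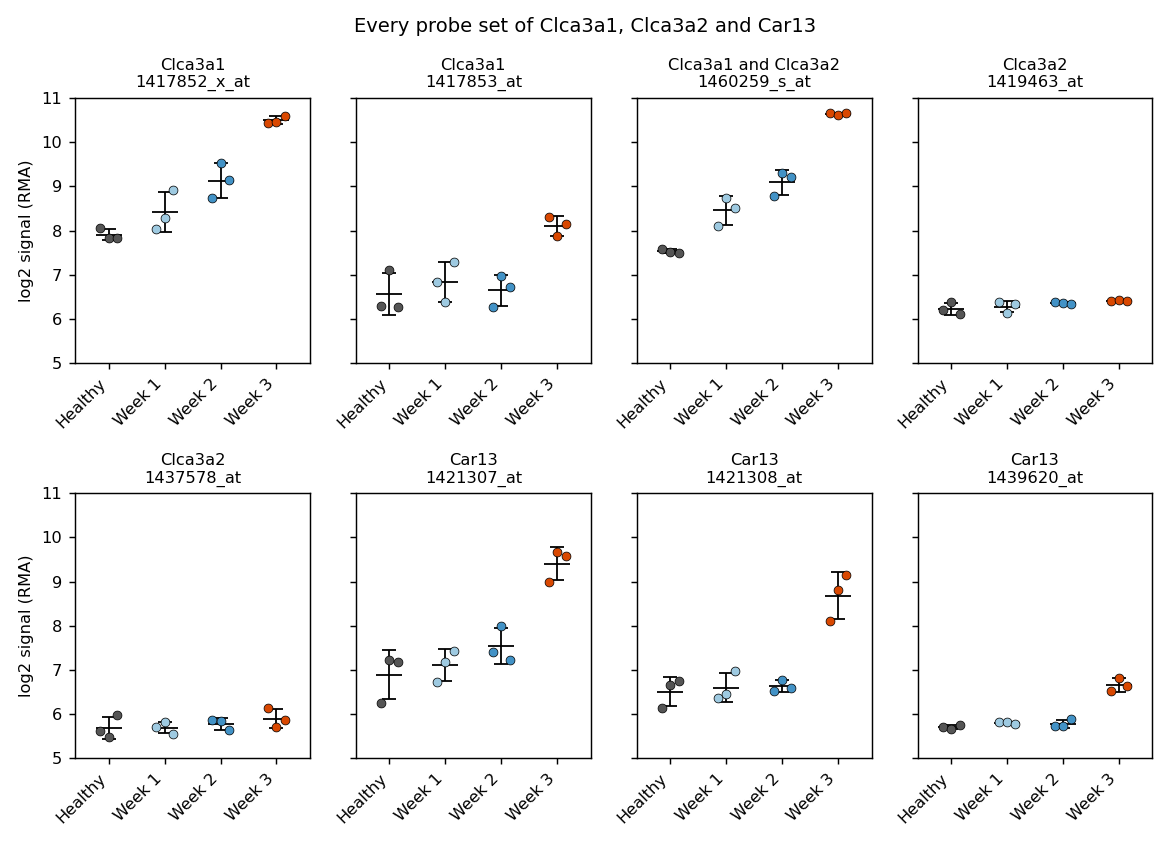
Log2 signal (RMA) of every probe set assigned to Clca3a1, Clca3a2 or both, and of the 3 probe sets of Car13, on each array, with healthy lungs and weeks 1, 2 and 3 from left to right. Points are arrays and bars are the mean ± SD. The probe set shared by Clca3a1 and Clca3a2 steps up in each group, to 10.61 to 10.66 at week 3, whereas the 2 probe sets of Clca3a2 alone differ by 0.18 and 0.20 between week 3 and healthy lungs.

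Car13, a cytosolic carbonic anhydrase, stood apart at week 3. Probe set 1421307_at had 6.25, 7.23 and 7.19 in healthy lungs, 6.72, 7.18 and 7.43 at week 1, 7.40, 8.00 and 7.22 at week 2, and 8.98, 9.67 and 9.57 at week 3. The first 3 groups overlapped one another, and 1 healthy array, 6.25, was lower than the rest. Week 3 was 2.52 ± 0.30 (SE) above healthy lungs, 5.72-fold and rank 7 by rise, and 1.86 ± 0.25 (SE) above week 2. Without the low healthy array the week 3 difference was 2.19. Differences from healthy lungs were 0.65 ± 0.31 (SE; adjusted p = 0.514) at week 2 and 0.22 ± 0.30 (SE; adjusted p = 0.856) at week 1, and the difference of week 2 from week 1 was 0.43 ± 0.25 (SE; adjusted p = 0.784).

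The other probe sets of Car13 gave the same direction with smaller sizes. For 1421308_at the week 3 arrays had 8.10, 8.81 and 9.14, against 6.13, 6.65 and 6.75 in healthy lungs, a difference of 2.17 ± 0.29 (SE). For 1439620_at they had 6.52, 6.82 and 6.64, against 5.70, 5.67 and 5.76 in healthy lungs, a difference of 0.95 ± 0.12 (SE). In all 3 probe sets the week 3 arrays lay above every healthy array, and the 2 further probe sets had Pearson correlations of 0.96 and 0.92 with the first over the 12 arrays. At week 2 their differences from healthy lungs were 0.13 ± 0.18 (SE; adjusted p = 0.852) and 0.08 ± 0.10 (SE; adjusted p = 0.839).

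Car8 was lower at week 3. Its protein has the fold of a carbonic anhydrase without the activity and binds the inositol trisphosphate receptor. Probe set 1427482_a_at had 8.85, 8.69 and 8.98 in healthy lungs, 8.66, 8.72 and 9.06 at week 1, 8.57, 8.66 and 8.42 at week 2, and 7.91, 8.11 and 8.33 at week 3. The week 3 arrays lay below all others, and the week 2 arrays lay below the healthy ones. The week 3 difference from healthy lungs was -0.73 ± 0.15 (SE), 0.605-fold, and that of week 2 was -0.29 ± 0.12 (SE; adjusted p = 0.45). Of the 2 further probe sets, 1457904_at differed by -0.46 ± 0.11 (SE) between week 3 and healthy lungs without overlap, and 1424958_at by -0.74 ± 0.29 (SE) with overlap.

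Car14, a transmembrane form with its active site outside the cell, was highest at week 2. Its 1 probe set had 11.22, 11.25 and 11.50 in healthy lungs, 11.54, 11.55 and 11.49 at week 1, 11.59, 11.66 and 11.89 at week 2, and 11.08, 11.49 and 11.16 at week 3. The week 2 arrays lay above those of every other group, by 0.39 ± 0.13 (SE) over healthy lungs, which did not pass the threshold (adjusted p = 0.354). Week 3 differed from healthy lungs by -0.08 ± 0.15 (SE) with overlap, and from week 2 by -0.47 ± 0.15 (SE).

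Car2, the cytosolic form of high activity that is abundant in red cells, had close signals in all 4 groups. Its values were 12.23, 12.18 and 12.32 in healthy lungs, 12.02, 12.21 and 12.37 at week 1, 12.17, 12.32 and 12.27 at week 2, and 12.32, 12.21 and 12.18 at week 3. All groups overlapped, and the differences from healthy lungs were -0.04 ± 0.13, 0.01 ± 0.10 and -0.00 ± 0.10 (SE) at weeks 1, 2 and 3.

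Car3, a cytosolic form of low activity known from muscle and fat, had 7.28, 7.21 and 7.37 in healthy lungs, 7.27, 7.41 and 7.57 at week 1, 7.19, 7.49 and 7.42 at week 2, and 7.64, 7.48 and 7.67 at week 3. The week 3 arrays lay above the healthy ones by 0.31 ± 0.11 (SE) and overlapped those of weeks 1 and 2. Its 4 probe sets disagreed, with week 3 differences from healthy lungs of 0.76 ± 0.26 for 1449434_at, 0.05 ± 0.10 for 1430584_s_at and -0.05 for 1453588_at. For 1449434_at the week 3 arrays were themselves apart, at 7.53, 6.48 and 7.22.

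Counted together, 0 of the 7 genes passed the threshold at week 1 against healthy lungs, where 0.0495% of all genes passed, and 0 of 7 at week 2, where 0.242% passed. By limma without adjustment, p was below 0.05 for 0 of the 7 at week 1 (8.98% of all genes) and for 3 at week 2 (10.5% of all genes), Clca3a1, Car14 and Car8. The week 2 arrays lay all above the healthy ones for 2 of the 7 genes, against 10.5% of all genes, and all below for 1, against 7.15%. Between week 2 and week 1, 0 of 7 and 0% of all genes passed, and 1 of the 7, Clca3a1, had p below 0.05 without adjustment (6.55% of all genes). At week 3, where 5.01% of all genes passed, the values of 2 genes, Clca3a1 and Car13, were past the threshold in the higher direction (2.38% of all genes) and that of 1, Car8, in the lower (2.63%). The week 3 arrays lay all above the healthy ones for 4 of the 7 genes (17.2% of all genes) and all below for 1 (12.7%). Because the list was chosen with that contrast in view, nothing is read from these counts. Its median difference at week 3 was 0.18, beside 0.03 over all genes. Against week 2 the values of 2 of the 7 were past the threshold in the higher direction (1.35% of all genes, and 2.1% in either). Against week 1 there were also 2 (0.649%, and 0.841% in either), Clca3a1 and Car13 both times. These counts share the week 3 arrays with the contrast behind the choice, so nothing is read from them either.

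Over the 12 arrays Clca3a1 and Car13 had a Pearson correlation of 0.92, and Car8 had -0.79 with Clca3a1 and -0.75 with Car13. The 12 points fall into 4 groups that differ in these genes, and share arrays, so the values are a description. Among 18192 other genes, the 5 most correlated with Clca3a1 were Tmem26 (0.980), Hif1a (0.974), 4931429P17Rik (0.970), Sema7a (0.968) and Scarb1 (0.967). Tmem26, a transmembrane protein, averaged 7.96 in healthy lungs, 8.27 at week 1, 8.81 at week 2 and 9.92 at week 3, so its mean stepped up in each group as that of Clca3a1 did. Hif1a, the oxygen-regulated transcription factor subunit, averaged 11.29, 11.51, 11.62 and 12.32 over the same groups. The 5 most correlated with Car13 were Trmt61a (0.971), Xpnpep2 (0.971), Ildr2 (0.960), Arhgap18 (0.958) and Apln (0.954). Ildr2 averaged 9.13 in healthy lungs, 9.42 at week 1, 9.87 at week 2 and 11.74 at week 3. Apln, the apelin ligand made by angiogenic endothelium, averaged 10.92, 10.95, 11.10 and 11.82, with its step at week 3. No gene appeared in both lists of 5.

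None of the further carbonic anhydrases had a week 3 difference from healthy lungs as large as that of Car13. All 11 further genes on the platform were measured, and 0 of 11 passed the threshold in any of the 6 comparisons by limma. The share of all genes that passed was highest at week 3 against healthy lungs, at 5.01%, so 0 of 11 is near it. Car1, Car5a, Car6, Car9, Car10, Car11 and Car12 were under the array median on every array, where a change may go unseen. At week 3 against healthy lungs, 2 of the 11 had p below 0.05 without adjustment (21.4% of all genes), and the median difference was -0.02, beside 0.03 over all genes. Car4, the capillary form, averaged 13.14 ± 0.03 at week 3 and 13.20 ± 0.10 in healthy lungs (SD, n = 3 each), a difference of -0.06 ± 0.10 (SE; adjusted p = 0.803). The 2 genes with p below 0.05 without adjustment went in opposite directions. Car5b, a mitochondrial form, differed by -0.38 ± 0.16 (SE; adjusted p = 0.227) and Car5a by 0.37 ± 0.11 (SE; adjusted p = 0.122). The week 3 arrays of Car5a lay above the healthy ones, with all its signals under the array median. Car15 differed by 0.09 ± 0.13 (SE; adjusted p = 0.758). Car1, which lies next to Car13 in the cluster, differed by -0.02 ± 0.11 (SE; adjusted p = 0.956).

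The platform holds 8 CLCA genes, and not all of them were listed. Of 5 further CLCA genes that were listed, 0 passed the threshold at week 3 against healthy lungs (5.01% of all genes). By limma without adjustment, p was below 0.05 for 1 (21.4% of all genes). The median difference was 0.23, beside 0.03 over all genes, and all 5 genes were under the array median on every array. The gene with p below 0.05 was Clca2, at the other end of the cluster. It had 7.63, 7.58 and 8.07 at week 3, against 7.78, 6.47 and 6.42 in healthy lungs. The 1 high healthy array made the groups overlap, and the difference was 0.87 ± 0.36 (SE; adjusted p = 0.237), or 1.31 without that array (adjusted p = 0.0315). Against week 2, Clca2 rose by 0.82 ± 0.15 (SE; adjusted p = 0.0481), a call that was lost when any 1 array was left out. Clca1, known from mucous cells of airway and gut, differed by 0.11 ± 0.10 (SE; adjusted p = 0.573) between week 3 and healthy lungs, Clca3b by -0.22 ± 0.12 (SE; adjusted p = 0.362) and Clca4a by 0.26 ± 0.12 (SE; adjusted p = 0.295).

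**Figure D3:**
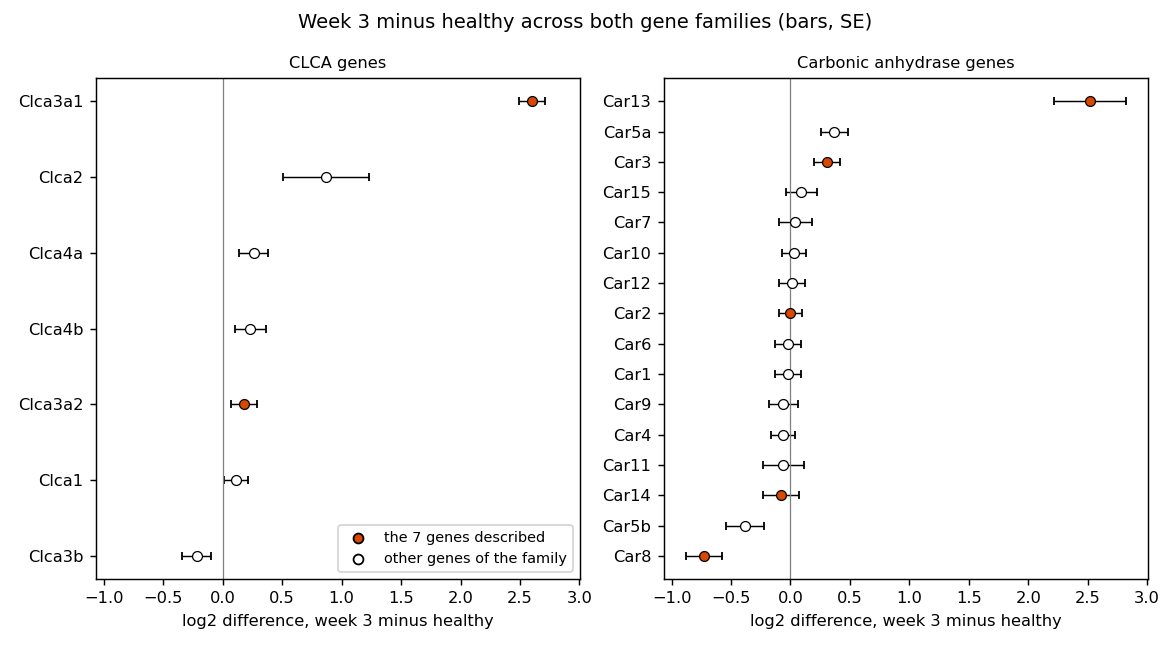
Log2 difference of week 3 minus healthy lungs, with the SE as bars, for the listed CLCA genes (left) and the carbonic anhydrase genes of the platform (right), each by 1 probe set. The platform holds 8 CLCA genes, and not all of them are shown. Filled points are the 7 genes described and open points 16 further genes. Clca3a1 at 2.60 and Car13 at 2.52 stand apart from the other genes shown, which lie between -0.73 and 0.87.

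Chloride channels and transporters that could work beside a CLCA protein changed in both directions. Of 27 listed genes 24 were measured, and at week 3 against healthy lungs 2 rose and 1 fell, with a median difference of -0.07. Of all genes 2.38% rose and 2.63% fell in that comparison. Slc12a2, the sodium, potassium and chloride cotransporter that loads cells with chloride, had 10.62, 10.63 and 10.74 at week 3, against 9.78, 9.71 and 9.57 in healthy lungs. It rose by 0.98 ± 0.11 (SE; adjusted p = 0.00625), and also rose over week 2 by 1.03 ± 0.14 (SE; adjusted p = 0.0237) and over week 1 by 1.02 ± 0.16 (SE; adjusted p = 0.0448). The call against healthy lungs held when each array was left out in turn, and those against week 2 and week 1 were each lost without 5 of their 6 arrays. Lrrc8c, a subunit of the volume-regulated anion channel, had 12.06, 12.01 and 11.94 at week 3, against 11.33, 11.41 and 11.25 in healthy lungs, and rose by 0.67 ± 0.10 (SE; adjusted p = 0.0183). Its call was lost without any 1 array, although the difference stayed between 0.63 and 0.72.

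Cftr, the cyclic AMP-gated chloride channel, fell by 0.82 ± 0.14 (SE; adjusted p = 0.0258) from a signal under the array median, averaging 5.86 ± 0.20 at week 3 and 6.68 ± 0.13 in healthy lungs (SD, n = 3 each). Its other probe set differed by -0.12 (adjusted p = 0.585), and the call was lost without 5 of the 6 arrays. The first Cftr probe set already differed from healthy lungs by -0.83 ± 0.20 (SE; adjusted p = 0.205) at week 2. Between week 3 and week 2 its difference was 0.01 ± 0.21 (SE; adjusted p = 0.985). The 3 genes of this list with the highest mean signal were Clic4, Clic5 and Clic1, intracellular chloride channel family proteins, and their week 3 differences from healthy lungs were -0.05 ± 0.10 (adjusted p = 0.843), -0.17 ± 0.12 (adjusted p = 0.454) and 0.33 ± 0.10 (SE; adjusted p = 0.132). Ano1, the calcium-activated chloride channel on which human CLCA1 acts, had a difference of -0.84 ± 0.21 (SE) that did not pass (adjusted p = 0.0713), and its other probe set one of -0.18 ± 0.11 (SE; adjusted p = 0.413). At week 2 the first Ano1 probe set already differed from healthy lungs by -0.82 ± 0.24 (SE; adjusted p = 0.295). Ano1 was named after its value was seen.

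Among bicarbonate and proton transporters, the partners of carbonic anhydrases at the membrane, 21 of 24 listed genes were measured, and at week 3 against healthy lungs 0 rose and 1 fell, near the 5.01% of all genes that passed, with a median difference of -0.12. The gene was Slc4a10, a sodium-coupled bicarbonate transporter best known from neurons, which fell by 0.52 ± 0.10 (SE; adjusted p = 0.0326), averaging 6.66 ± 0.04 at week 3 and 7.18 ± 0.02 in healthy lungs (SD, n = 3 each), all under the array median. Against week 2 it fell by 0.66 ± 0.11 (SE; adjusted p = 0.0446). Both calls were lost without any 1 array, although the differences stayed between -0.53 and -0.50 against healthy lungs and between -0.75 and -0.59 against week 2. The 3 genes with the highest mean signal differed little between week 3 and healthy lungs. The values were -0.02 ± 0.11 (SE; adjusted p = 0.946) for Slc9a3r2, a scaffold of the proton exchanger, 0.03 ± 0.10 (SE; adjusted p = 0.904) for the water channel Aqp1, and 0.04 ± 0.11 (SE; adjusted p = 0.88) for the anion exchanger Slc4a2. At week 1 and at week 2 against healthy lungs, and between these weeks, no gene of the 4 lists passed.

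**Figure D4:**
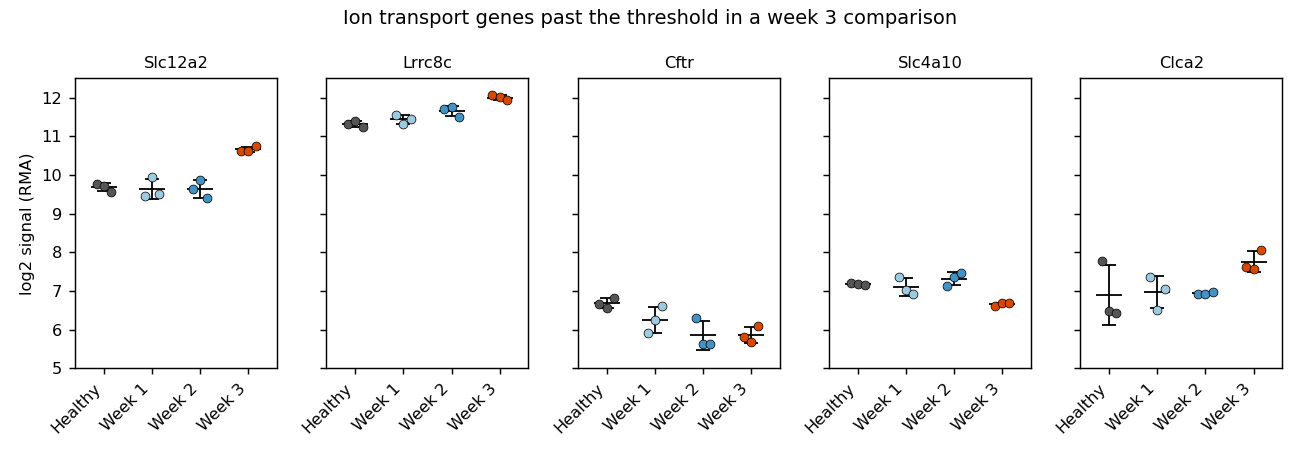
Log2 signal (RMA) on each array of the 5 genes around the CLCA and carbonic anhydrase members that passed the threshold in a comparison with week 3, with healthy lungs and weeks 1, 2 and 3 from left to right. Points are arrays and bars are the mean ± SD. Slc12a2 lies between 10.62 and 10.74 at week 3 and between 9.57 and 9.78 in healthy lungs, and the healthy Clca2 arrays are split, at 7.78, 6.47 and 6.42.

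The label of the cells was checked against 10 pan-endothelial markers, whose mean log2 signal was 13.00 to 13.09 at week 3 and 12.93 to 13.06 in healthy lungs, and 0 of 10 passed the threshold. Markers of cells outside the sort were also measured. The mean of 8 fibroblast markers was 10.77 to 10.94 at week 3 and 11.36 to 11.46 in healthy lungs, with 3 of 8 lower, where 2.63% of all genes were lower. Also lower were 2 of 8 pericyte and smooth muscle, 3 of 5 type 1 alveolar and 3 of 5 type 2 alveolar markers. Against healthy lungs these signals thus differed at week 3 in the direction of Car8. The fibroblast mean was also lower at week 1 (10.64 to 10.81) and at week 2 (10.19 to 10.56) than in healthy lungs. Car8 was lowest at week 3, and the fibroblast mean at week 2. At weeks 1, 2 and 3 the pericyte and smooth muscle mean was 8.56 to 8.78, 8.45 to 8.70 and 8.92 to 9.04. The type 1 alveolar mean was 9.22 to 9.75, 9.24 to 10.15 and 9.23 to 9.43. The type 2 alveolar mean was 10.13 to 11.06, 10.29 to 11.53 and 10.70 to 11.23. The mean of 7 mast cell and basophil markers was 8.50 to 8.77 at week 3 and 7.88 to 7.96 in healthy lungs, with 2 of 7 higher (2.38% of all genes), in the direction of Clca3a1 and Car13. That mean was 7.86 to 8.05 at week 1 and 7.76 to 7.92 at week 2, so it stood apart at week 3 only, as Car13 did. Of 7 leukocyte and macrophage markers 1 was lower at week 3 than in healthy lungs (2.63% of all genes), and 0 of 7 airway epithelium markers passed. Of 6 platelet markers 0 passed against healthy lungs, and 3 were higher at week 3 than at week 1 (0.649% of all genes). The platelet mean was 8.78 to 9.01 at week 3 and 8.00 to 8.35 at week 1. The part of any of these cells in the values of the 7 genes was not tested. Among 6 venous markers 1 passed at week 3 against healthy lungs, where 2.38% of all genes were higher. It was Ackr1, which rose by 1.62 ± 0.24 (SE; adjusted p = 0.0166). The other 5 did not pass, and of these Nr2f2 (-0.14) and Slc6a2 (-0.20) were lower. In the same comparison 0 of 6 lymphatic, 0 of 5 adipocyte and 0 of 6 erythroid markers passed. Of the erythroid markers 4 of 6 were under the array median on every array. No marker list can tell fewer cells of a type from less RNA per cell in such bulk samples. Pearson correlations between arrays were 0.973 to 0.983 within groups and 0.961 to 0.981 between groups.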

How the data were processed

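The authors normalized the Affymetrix mouse genome arrays by RMA in Chipster 3.8.0 and deposited 1 log2 signal per probe set and array, which was used as deposited; background correction, quantile scaling and summarization leave a small range for dim genes. RNA was isolated with a PicoPure kit and amplified from a picogram input. Of 45101 probe sets, 64 array controls were set aside. Of the rest, 34945 carry 1 symbol in the platform annotation, 932 several and 9160 none, and 9010 of 18193 genes have more than 1 probe set. Symbols of all 7 genes matched RefSeq.

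Each comparison was fitted on its own 6 arrays by limma 3.58.1 (lmFit and eBayes, R 4.3.3), following the study's use of empirical Bayes on pairs of groups, and p-values were adjusted by Benjamini and Hochberg's method over 45037 probe sets. The fit was also run on simulated data with independent noise for each probe set, and the outcome is not reported here. SE is that of limma, and p-values measure the spread between 3 arrays a group. Their number limits the precision. The genes and lists were chosen with earlier results of these data known. Named were all 7 genes, every gene of the 4 further lists past the threshold in any comparison, the 3 of highest mean signal per list, and the 5 most correlated genes. Genes outside this rule (Car1, Car5a, Ano1) were added. Replicate numbers did not pair the arrays: deviations of same-numbered arrays had correlations of -0.10 to 0.06. Alternatives were 1 fit of all groups, the replicate number as a block, median centring, a low-signal filter, eBayes with trend, other probe set choices and each array left out. Summaries used Python 3.11.15 with numpy 2.4.6, pandas 2.3.3, scipy 1.17.1 and matplotlib 3.10.9. The start regions of the other genes are not reported here.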

Additional observations from a re-analysis of the deposited data

Results flagged for a closer look

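In 3 genes the week 3 difference from healthy lungs was set against the week 2 difference, which is the comparison of week 3 with week 2, by limma. Slc12a2 differed by 1.03 (adjusted p = 0.0237), with 0.98 at week 3 and -0.05 at week 2. Clca2 differed by 0.82 (adjusted p = 0.0481), with 0.87 at week 3 and 0.05 at week 2. Slc4a10 differed by -0.66 (adjusted p = 0.0446), with -0.52 at week 3 and 0.14 at week 2. A further value is that of the probe set shared by Clca3a1 and Clca3a2, which was outside the main measurement, since it was read for neither gene, and was 3.11 higher on the log2 scale at week 3 than in healthy lungs.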

How the results depend on the processing

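Week 3 differences from healthy lungs kept their direction for Clca3a1 and Car13 under every alternative. For Clca3a1 the difference was 2.07 as the mean of its probe sets and 1.55 without probe sets ending in _x_at or _s_at, and 2.55 to 2.67 with 1 array left out. For Car13 it was 1.88 as the mean of its probe sets and 2.19 to 2.73 with 1 array left out. The cause of such shifts was not tested.

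The number of the 7 genes past the threshold at week 2 against healthy lungs was 1 with all groups in 1 fit, against 0. At week 3 it stayed at 2 with 1 array left out, against 3. Against week 2 it was 0 with the replicate number as a block and 0 to 2 with 1 array left out, against 2. Against week 1 it was 1 with the block, 1 without _x_at and _s_at probe sets (which leaves out Car14), and 0 to 2 with 1 array left out, against 2. Nothing is read from the counts of the 7 genes that involve week 3, since the list was chosen with week 3 in view. The low-signal filter left out Clca3a2 and Car3. Of the further lists at week 3, bicarbonate and proton transport had 2 with all groups in 1 fit, 0 with the block, 0 under the low-signal filter (8 genes left), 2 by the mean of probe sets and 0 to 1 with 1 array left out, against 1. Chloride channels and transporters had 1 to 2 with 1 array left out, against 3, and the CLCA genes 0 to 1, with the 1 found without healthy replicate 1. With the block the calls of Slc4a10 (adjusted p = 0.114), Lrrc8c (0.069) and the shared CLCA probe set at week 2 (0.0956) were lost, and replicate numbers were shared by name only: in 5 of 18 comparisons of an array with another group, it correlated best with its own number.

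Some signs turned. Week 2 minus week 1 was -0.19, against 0.72, for Clca3a1 without _x_at and _s_at probe sets and 0.00 for Car3 by the mean of probe sets. With 1 array left out, week 1 minus healthy ranged over -0.02 to 0.12 for Clca3a2, -0.13 to 0.05 for Car2, -0.15 to 0.05 for Car8 and -0.10 to 0.42 for Car13. Week 2 minus week 1 ranged over -0.01 to 0.12 for Clca3a2, -0.04 to 0.14 for Car2 and -0.13 to 0.03 for Car3, and week 2 minus healthy over -0.02 to 0.05 for Car2. Week 3 minus healthy ranged over -0.20 to 0.01 for Car14 and -0.05 to 0.04 for Car2, for which week 3 minus week 2 ranged over -0.05 to 0.02 and week 3 minus week 1 over -0.05 to 0.12.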
